A study of Mus musculus with 12 samples.

Results

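Gangliosides are sphingolipids that carry sialic acid, and 9 genes that make or break them down were followed in neurons of a mouse model of Sanfilippo syndrome type B. The genes are Ugcg, St3gal5, St8sia1, St8sia3, St8sia5, B4galnt1 and St3gal2, which encode enzymes of synthesis, and Hexa and Gm2a, which serve breakdown. They were chosen by name, because the gangliosides GM2 and GM3 are stored in this disease, and every probe that the scanner files list under one of these names was taken. This gave 19 probes for 9 of the 27573 gene names on the array. Of the 41174 probes of the array 12987 were bright enough to be kept. A probe was kept when 1 genotype in 1 region had 4 or more of its 6 readings well above background, and the kept probes included 16 of the 19 probes and at least 1 probe of each of the 9 genes.

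The samples were neuron bodies taken by laser capture from the medial (MEC) and the lateral (LEC) entorhinal cortex, which lie side by side in the temporal part of the brain. Mutants were Naglu-/- and controls Naglu+/-, both on C57BL/6, and all were female littermates 2 months old. Naglu encodes alpha-N-acetylglucosaminidase, a lysosomal enzyme that degrades heparan sulfate, and the controls carry a single intact copy of it. In each region 3 pairs of mutant and control were measured, 500 neurons per region were collected from cresyl violet-stained sections 12 µm thick, and the amplified RNA of each pair was hybridised to 2 Agilent arrays in opposite dye orientations, which makes 12 arrays. Whether MEC and LEC pairs with equal numbers share their mice is not stated in the labels, and p-values measure the spread between these pairs.

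In the Golgi, gangliosides are built by adding sugars to ceramide in a fixed order, and in the lysosome they are taken apart in the reverse order. Ugcg adds the first glucose, St3gal5 makes GM3, St8sia1 converts GM3 to GD3, B4galnt1 turns these into GM2 and GD2, and St3gal2 adds a sialic acid to the outer galactose, which gives the complex gangliosides of mature neurons. Breakdown of GM2 needs beta-hexosaminidase A, whose alpha subunit is encoded by Hexa, and the activator protein Gm2a, which lifts GM2 out of the membrane. Mutations of either gene in people cause a GM2 gangliosidosis.

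Some facts of the arrays bear on every value. In replicate 2 of both regions the sign of the authors' value table is opposite to the labelled dyes, and 5 of the 6 LEC scanner files lie under the name of another LEC sample. The values here follow the table for both, and which way replicate 2 runs is open to doubt. Across the kept probes, the ratios of replicates 2 and 3 then correlate at −0.58 in MEC and −0.45 in LEC, and at 0.58 and 0.45 with replicate 2 turned as labelled. Those of replicates 1 and 2 correlate at 0.09 in MEC and −0.07 in LEC, with the signs reversed when turned. In the table's direction the median ratio of the microglia and macrophage markers (list below) was 0.16, 0.23 and 0.11 across the MEC pairs. Across the LEC pairs it was 0.16, 0.14 and 0.31, and turning puts replicate 2 below 0. The direction is not settled by these values, so the mutant means of each gene are given both ways. All MEC arrays were scanned on 1 day and all LEC arrays on another, so region and scan day cannot be told apart. Between 48.2% and 67.9% of an array's spots cleared the background in Cy3 and between 14.8% and 30.4% in Cy5. Naglu itself had no probe bright enough to be kept, so it checks no label.

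The comparison of mutant with control asked whether loss of Naglu goes with another RNA level of these enzymes. No member was called in MEC, in LEC, over both regions or for a difference between the regions. Limma's adjusted p, here and below, is by Benjamini-Hochberg with a threshold of 0.05. It was taken over the 12981 probes with a value in every pair, over 13266 with replicate 2 turned, and over each other alternative's own probes. In the table's direction it was 1.00 for each of the 16 probes in each of these 4 tests. The background was the same: 0 of 12981 probes (0%) were called in each of the 4 tests, while 134, 198, 275 and 71 had an unadjusted p under 0.05. A ratio below is the log2 of mutant divided by control, and for each gene the brightest probe is given first.

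St3gal2, the sialyltransferase of the last step, had ratios of 0.08, 0.05 and 0.20 across the MEC pairs, and across the LEC pairs of 0.33, 0.10 and 0.22. The ratio was above 0 in 6 of 6 pairs and on 12 of 12 arrays. Over all probes 1.15% were above 0 in all pairs and 0.0703% on all arrays. The mean was 0.16 (SE 0.05, 95% interval 0.05 to 0.28), or 1.12-fold, with an unadjusted p of 0.0131 and an adjusted p of 1.00 by limma. With replicate 2 turned as labelled the mean was 0.11 (SE 0.06), and 4 of 6 pairs and 8 of 12 arrays were above 0. With scanner files and dyes both taken as labelled, the mean fell to 0.05 (SE 0.06). The LEC mean was then 0.02 (SE 0.09), against 0.22 in the table's direction. Agilent's processed signals, to which no offset is added, gave 0.23 (SE 0.12). The second St3gal2 probe, which is listed under the other transcript accession, was well above background in 7 of 24 readings and was not kept.

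St8sia5, a sialyltransferase that builds gangliosides with several sialic acids, was the only one of the 9 genes with an unadjusted p under 0.05 in MEC, in the table's direction. The MEC pairs read 0.53, 0.25 and 0.12, and the LEC pairs 0.37, −0.08 and −0.06. In the table's direction 3 of 3 MEC pairs and 1 of 3 LEC pairs were above 0, and with replicate 2 turned 2 of 3 were in each region. The MEC mean was 0.30 (SE 0.11, unadjusted p of 0.0347, adjusted p of 1.00 by limma), the LEC mean 0.08 (SE 0.11), and the difference between them 0.22 (SE 0.16), which was not called. Turned as labelled, MEC and LEC both stood at 0.13 (SE 0.14). The second St8sia5 probe, which is dimmer and is listed under another accession, read 0.18, −0.24 and 0.14 in MEC, a mean of 0.03 (SE 0.09), and 0.18 with replicate 2 turned.

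Of the early steps, Ugcg had a mean of 0.03 (SE 0.04), at 0.14, −0.02 and 0.07 for MEC and at −0.0028, −0.03 and 0.0087 for LEC. St3gal5, the GM3 synthase, read −0.01, −0.04 and 0.52 in MEC, against 0.02, −0.21 and −0.03 in LEC. The MEC mean of St3gal5, 0.16 (SE 0.12), therefore rests on pair 3. On the 2 arrays of that pair the ratios were 0.58 and 0.47, so the dye swap gave the same sign. With replicate 2 turned, Ugcg gave 0.08 (SE 0.05) in MEC and 0.01 (SE 0.05) in LEC, and St3gal5 0.18 (SE 0.11) and 0.07 (SE 0.11), where its LEC mean had been −0.07.

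St8sia1, the GD3 synthase, read 0.14, −0.23 and −0.10 in MEC, against −0.22, 0.10 and −0.12 in LEC, with a mean of −0.07 (SE 0.07). St8sia3, a sialyltransferase of the same family, read −0.09, −0.11 and 0.34 in MEC, against 0.15, 0.01 and −0.16 in LEC. Pair 3 of MEC thus stood apart here as for St3gal5. Its second probe, which shares most of its target bases with the first, followed it at −0.05, −0.16 and 0.38 in MEC. With replicate 2 turned, St8sia1 gave 0.09 (SE 0.07) in MEC, where the table's direction had −0.06, and −0.14 (SE 0.07) in LEC. St8sia3 gave 0.12 (SE 0.09) and −0.0082 (SE 0.09). B4galnt1, which makes GM2, read 0.02, −0.04 and 0.11 in MEC, against 0.12, −0.05 and 0.21 in LEC. Its mean was 0.06 (SE 0.05), and with replicate 2 turned all 6 pairs were above 0, with a mean of 0.09 (SE 0.04, adjusted p of 0.417 by limma). In that direction 62.2% of the kept probes had a mean above 0, and the share with all 6 pairs above 0 was not counted. The second B4galnt1 probe read −0.04 (SE 0.06) in the table's direction and −0.05 with replicate 2 turned, with 3 of 6 pairs above 0.

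Of the breakdown genes, Hexa read 0.21, 0.02 and 0.15 in MEC, against 0.03, 0.08 and −0.09 in LEC, a mean of 0.13 (SE 0.07) in MEC and 0.0035 (SE 0.07) in LEC. With replicate 2 turned, the Hexa means were 0.11 (SE 0.06) in MEC and −0.05 (SE 0.06) in LEC, with 3 of 6 pairs above 0 against 5 of 6 in the table's direction. Gm2a read −0.06, 0.08 and 0.02 in MEC, against −0.04, 0.04 and −0.03 in LEC, and its mean over both regions was 0.0029 (SE 0.04, 95% interval −0.10 to 0.10), or −0.04 (SE 0.04) with replicate 2 turned. These pair values average dye-swapped arrays that differed more than the pairs did: the arrays of MEC pair 1 read 0.17 and −0.29 for Gm2a.

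Across the 9 genes, by their brightest probes, the mean over both regions was above 0 in 8, and their median was 0.04. Of all their 16 kept probes, 11 were above 0 over both regions (median 0.03), 13 in MEC and 8 in LEC. Over all 12981 probes 50.9% were above 0, with a median of 0.00098. With replicate 2 turned, 7 of the 9 genes were above 0, with a median of 0.06, and 62.2% of the 13266 probes then tested, with a median of 0.02. The MEC median of the 9 genes was 0.06 (0.09 turned), with 8 above 0 either way, and the LEC median 0.00061 (0.01 turned), with 5 above 0 either way. Of all probes 47.3% were above 0 in MEC (63.6% turned) and 52.8% in LEC (51.1% turned). With scanner files and dyes both taken as labelled, the mean over both regions changed sign in 3 of the 9 genes against the table's direction. The LEC mean changed sign in 4 of 9, among them St8sia5 at −0.05 (SE 0.14) and B4galnt1 at −0.06 (SE 0.06). The 95% intervals of the mean over both regions reached 0.10 to 0.20 to either side of the estimate, so changes below that size are not resolved with 6 pairs. They are intervals of single probes, not adjusted for the number tested, and far larger changes can also go uncalled. The lowest adjusted p of all probes was 0.0976, and a microglial marker with a mean ratio of 0.81 (SE 0.14) had 0.920, by limma. Markers of microglia and macrophages, a list of 12 genes of which 9 were kept, had a median ratio of 0.17 over both regions, with 8 of 9 above 0, and 0.04 with replicate 2 turned. Their part in the ratios of the ganglioside genes was not tested.

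**Figure D1:**
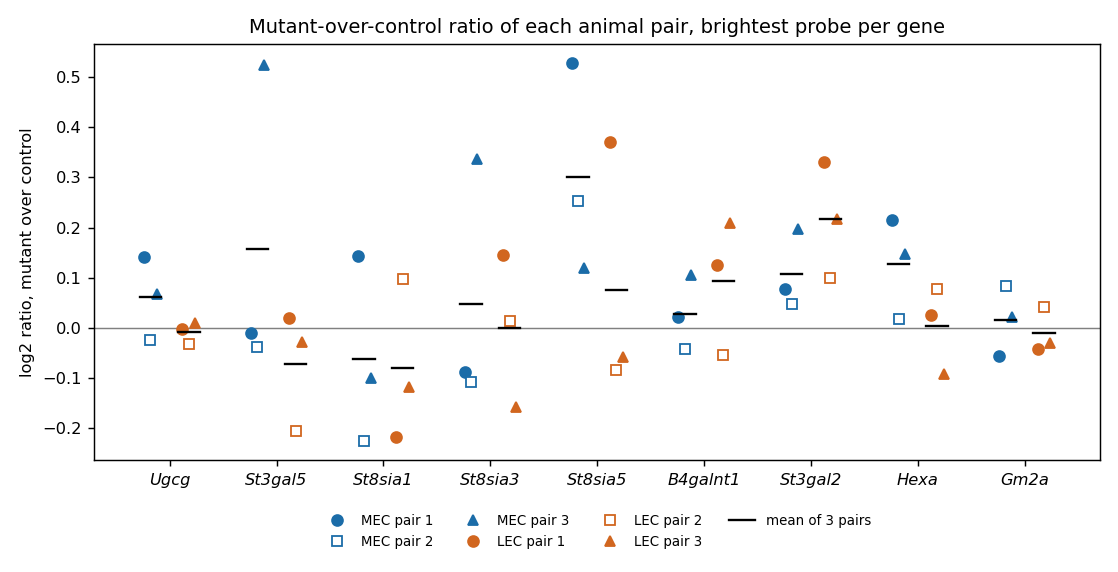
Log2 ratio of mutant over control (vertical axis) for the brightest probe of each of the 9 genes, in order of their step in the pathway. Points are the 3 MEC pairs (blue) and 3 LEC pairs (orange), open squares are replicate 2, whose direction is not settled, and bars are means of 3 pairs; St3gal2 is the gene with all 6 points above 0.

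**Figure D2:**
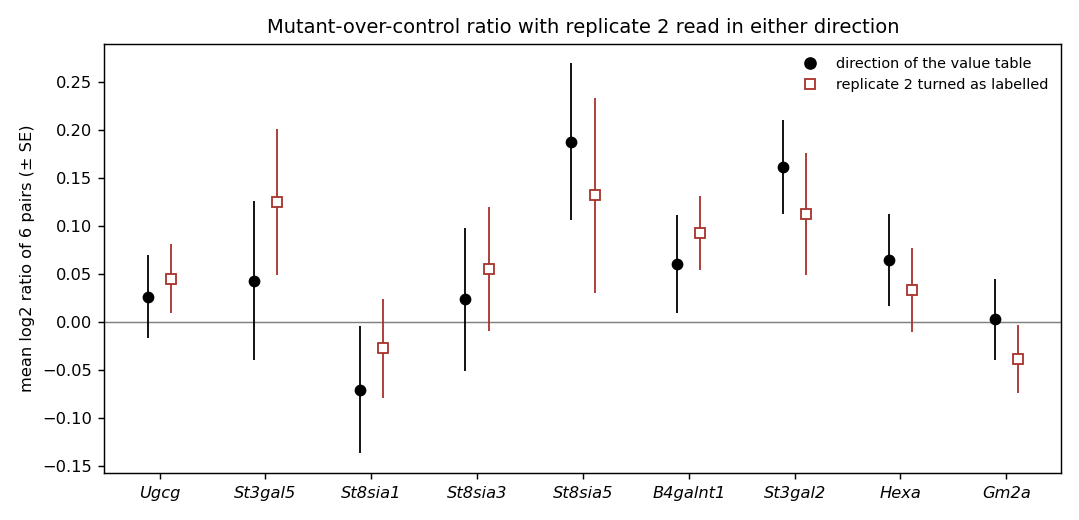
Mean log2 ratio of mutant over control over 6 pairs, with limma's standard error, for each gene's brightest probe. Black circles follow the value table's direction, and open red squares have replicate 2 of both regions turned as labelled: St3gal2 moves from 0.16 to 0.11 and Gm2a from 0.0029 to −0.04.

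The second comparison set the level of each gene in MEC neurons against LEC neurons, over both genotypes. A region's mean level does not depend on the dye direction or on which LEC file belongs to which LEC sample, but the LEC pair values do depend on the latter. The level is the mean log2 signal of both dyes after quantile normalisation between arrays, averaged over the 2 arrays of a pair. With this scaling 5 of the 9 genes were called: St3gal2 and Hexa were lower in MEC, and St8sia5, St8sia3 and Ugcg were higher in MEC, a direction these 3 did not keep when arrays were scaled to the median of all probes. Over all probes 3151 of 12981 (24.3%) were called, 11.4% higher in MEC and 12.9% higher in LEC. With 1 probe per gene, as in the count of the 9 genes, the share called was 25.6%. The pairs of the regions did not overlap for 6 of the 9 genes by their brightest probes, and for 42.7% of all probes. The share without overlap at 1 probe per gene was not counted. Of all 16 kept probes of the 9 genes, 5 were called and 8 did not overlap. Taking the scanner files as named, an alternative added after seeing the data, leaves the differences of the 9 genes unchanged by construction, so their direction is no test. Only the spread between LEC pairs can change. With it all 5 genes were called (adjusted p from 0.000263 to 0.00981 by limma), and their pairs did not overlap. The median difference of the 9 genes was −0.0019, against −0.01 over all probes. In these samples, fewer cells of a type and less RNA per cell cannot be told apart.

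Of the 9 genes, St3gal2 had the largest difference. Its level was 7.45, 7.51 and 7.50 across the MEC pairs, and across the LEC pairs it was 7.90, 7.88 and 7.90. Every LEC pair was above every MEC pair. The difference was −0.41 (SE 0.04, 95% interval −0.50 to −0.31), or 1.32-fold, with an adjusted p of 0.000984 by limma. Both genotypes showed it: controls stood at 7.44 ± 0.05 (SD, n = 3) for MEC against 7.79 ± 0.05 (SD, n = 3) for LEC, and mutants at 7.54 ± 0.05 against 8.003 ± 0.07 (SD, n = 3). The probe (accession NM_178048) lies on chromosome 8, 113858136 to 113858195, in build mm8. The other St3gal2 probe, which was not kept, read 5.96 in MEC and 5.86 in LEC, the opposite order, without overlap of the pairs.

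Hexa stood at 6.67, 6.67 and 6.75 in MEC and at 6.92, 6.91 and 6.85 in LEC. Again no MEC pair reached an LEC pair. The difference was −0.20 (SE 0.05, adjusted p of 0.0187 by limma), or 1.15-fold, on the array's single Hexa probe (NM_010421, chromosome 9, 59361911 to 59361970, build mm8). Leaving out either of MEC replicates 1 and 2 or LEC replicates 1 and 2 kept the direction and ended the call, with adjusted p from 0.0574 to 0.0724 by limma, and the fit on 12 arrays with the pair as a random block gave 0.0544 for Hexa.

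St8sia5 had 8.48, 8.47 and 8.44 in MEC and 8.16, 8.20 and 8.23 in LEC, a difference of 0.26 (SE 0.04, adjusted p of 0.00504 by limma). Its probe (NM_153124) lies on chromosome 18, 77459657 to 77459716, in build mm8. The second St8sia5 probe gave −0.03 (SE 0.06, adjusted p of 0.711). St8sia3 had 7.47, 7.46 and 7.32 in MEC and 7.12, 7.06 and 7.25 in LEC, a difference of 0.27 (SE 0.07, adjusted p of 0.0198 by limma), while the overlapping second probe gave 0.14 (SE 0.07, adjusted p of 0.157) and a further one 0.03. The groups of the first St8sia3 probe are close, with the highest LEC pair 7.25 and the lowest MEC pair 7.32. Leaving out any one of MEC replicates 1 and 2 and LEC replicates 1 and 2 ended the St8sia3 call, with adjusted p from 0.0529 to 0.0732.

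Ugcg had 6.71, 6.71 and 6.81 in MEC and 6.43, 6.45 and 6.57 in LEC, a difference of 0.26 (SE 0.06, adjusted p of 0.0135 by limma), at the probe on chromosome 4, 59316515 to 59316574 (NM_011673, build mm8). Its second probe, which was kept through its readings in LEC mutants, gave −0.01 (SE 0.05). In the Cy3 channel alone, the dye with more readings above background, Ugcg differed by 0.10 (adjusted p of 0.322), and without LEC replicate 2 its adjusted p was 0.0521.

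For 5 of the 9 genes the RefSeq promoter table (GRCm38.p6) holds a start site, and 2 of these genes were called between regions. Their 250 bases before the start are shown because Hexa and Ugcg differed in opposite directions with quantile scaling, though Ugcg stood at −0.0042 with the median of all probes. Capitals mark GGGCGG or its reverse complement CCGCCC, the GC box bound by Sp factors. CACGTG, which reads the same on both strands and is the core of an element found before many lysosomal genes, was searched as well, and no match of one motif overlaps the other.
Hexa, chr9:59539290-59539539, + strand: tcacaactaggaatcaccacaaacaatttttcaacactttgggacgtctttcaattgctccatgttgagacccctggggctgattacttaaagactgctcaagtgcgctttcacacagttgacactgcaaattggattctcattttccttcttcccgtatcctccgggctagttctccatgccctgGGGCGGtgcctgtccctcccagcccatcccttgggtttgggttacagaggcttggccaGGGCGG
Ugcg, chr4:59189300-59189549, + strand: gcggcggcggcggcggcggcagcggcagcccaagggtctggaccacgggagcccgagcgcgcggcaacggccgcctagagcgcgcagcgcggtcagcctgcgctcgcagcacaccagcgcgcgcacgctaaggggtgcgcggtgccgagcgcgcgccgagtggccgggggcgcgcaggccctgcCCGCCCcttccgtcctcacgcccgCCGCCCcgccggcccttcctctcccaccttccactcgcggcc
Each stretch holds 2 GC boxes, while 16.7% of 32851 promoters of this length hold at least 2 and 32.7% at least 1. For Hexa they begin 64 and 6 bases before the start and for Ugcg 66 and 42. CACGTG is in neither stretch, nor in those of St3gal5, St8sia1 and Gm2a, and in 6.02% of all. The Ugcg stretch is 80.4% G and C, against 51.6% for Hexa and a median of 52.4% over all promoters. Gm2a, the other breakdown gene, holds 5 GC boxes. No binding was measured here, and a match or its absence is a description of the letters.

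The remaining 4 genes were not called. St3gal5 had 9.91, 9.74 and 9.65 in MEC and 9.995, 9.79 and 10.2 in LEC, with overlapping pairs and a difference of −0.24 (SE 0.11, adjusted p of 0.160 by limma). Gm2a had 6.16, 6.14 and 6.18 in MEC and 6.22, 6.21 and 6.22 in LEC, a gap without overlap but of −0.06 (SE 0.04, adjusted p of 0.354), and its second probe gave −0.10 (SE 0.05, adjusted p of 0.140). B4galnt1 had 6.74, 6.67 and 6.48 in MEC, which span its LEC values of 6.54, 6.57 and 6.55, a difference of 0.07 (SE 0.07). St8sia1 had 7.63, 7.54 and 7.64 against 7.67, 7.67 and 7.47, a difference of −0.0019 (SE 0.07, 95% interval −0.16 to 0.15). A second St8sia1 probe, kept through its LEC readings, gave −0.13 (SE 0.05, adjusted p of 0.0871).

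**Figure D3:**
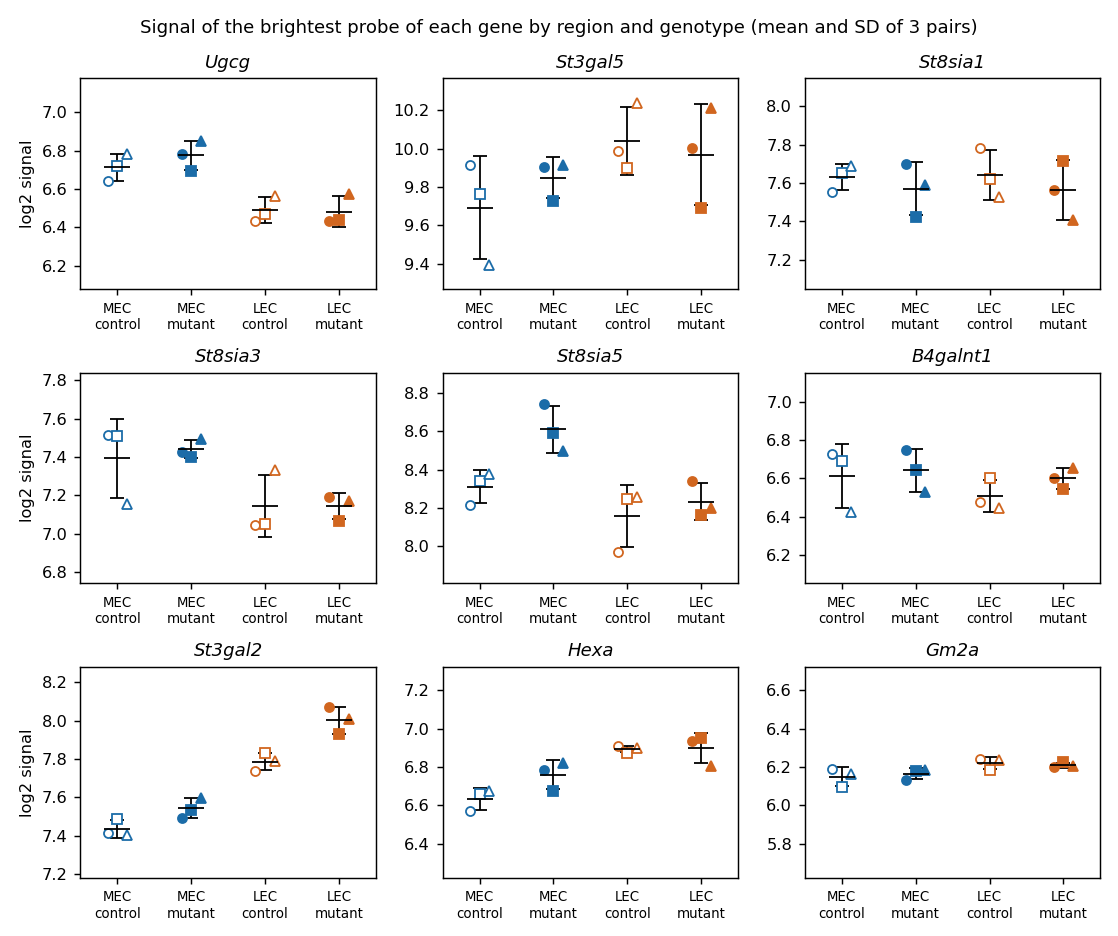
Log2 signal of the brightest probe of each gene in MEC (blue) and LEC (orange), controls open and mutants filled; markers are circles, squares and triangles for pairs 1, 2 and 3, and bars show the mean and SD of 3 pairs. Each panel has its own vertical range of the same width, so heights of different genes are not comparable; with this quantile scaling St3gal2 and Hexa are lower in MEC and St8sia5, St8sia3 and Ugcg higher (the latter turn under the median of all probes), and which of the 2 values of a replicate 2 pair is the mutant is not settled.

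**Figure D4:**
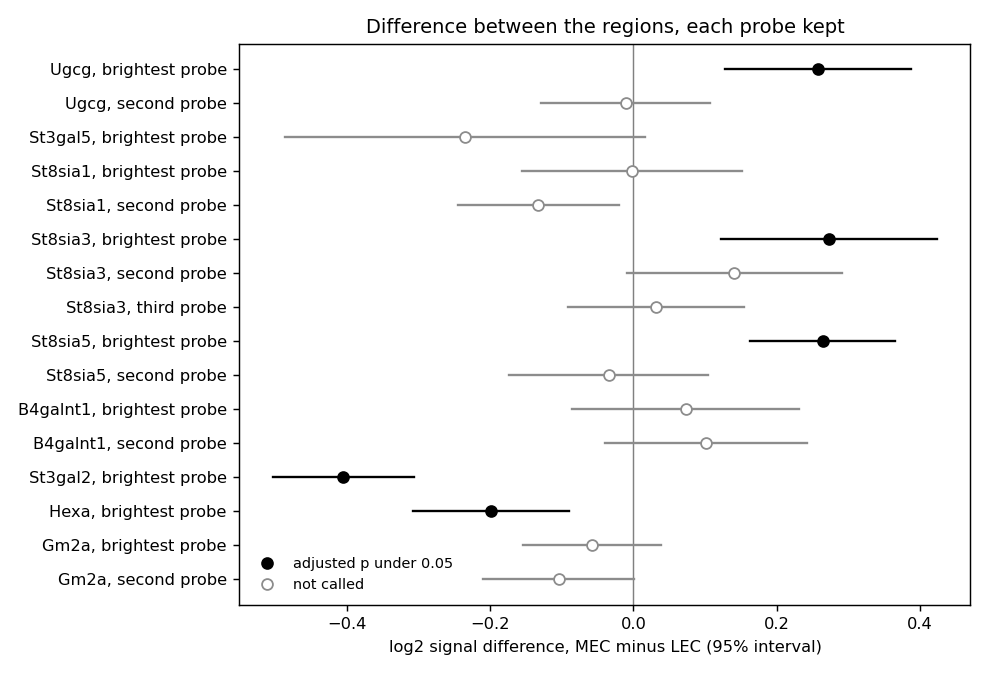
Difference of log2 signal, MEC minus LEC, with its 95% interval, for the 16 kept probes of the 9 genes. Filled black points passed the adjusted p of 0.05: 2 lie below 0 (St3gal2 and Hexa) and 3 above (St8sia5, St8sia3 and Ugcg, which turn under the median of all probes), and none of the dimmer probes was called.

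The scaling between arrays decided the direction of some of these differences. Scaling each array to the median of all its probes in place of quantile normalisation moved the median of the kept probes to −0.17, and 6746 of 12981 (52%) were then called, 189 of them higher in MEC and 6557 higher in LEC, where the quantile scaling had 1474 and 1677. With the arrays scaled to the median of the kept probes, an alternative added after seeing this shift, 5101 (39.3%) were called, 2172 higher in MEC and 2929 higher in LEC. St3gal2 stayed lower in MEC, at −0.88 and −0.69 (adjusted p of 0.000405 and 0.000595 by limma). Relative to the median difference of the 12981 tested probes it stood at −0.71 under either scaling. Hexa stayed lower too, at −0.51 and −0.31 (adjusted p of 0.00067 and 0.00246), or −0.33 relative to that median difference.

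The genes higher in MEC did not keep their direction in the same way. St8sia5 turned to −0.28 with the median of all probes (adjusted p of 0.0211) and to −0.09 with that of the kept probes (adjusted p of 0.323). St8sia3 gave −0.15 and 0.05, neither called. Ugcg gave −0.0042 with all probes and 0.19 with the kept probes (adjusted p of 0.0371), and 0.17 relative to the median difference of the tested probes. St3gal5 and St8sia1 were called lower in MEC under both median scalings, St3gal5 at −0.82 and −0.63 and St8sia1 at −0.47 and −0.27. Gm2a was called at −0.15 with the median of all probes, but this was 0.02 relative to the median difference of the tested probes. With the median of the kept probes Gm2a stood at 0.04 (adjusted p of 0.495 by limma). Agilent's processed signals, quantile normalised, gave the main direction for the 5 called genes: −0.53 for St3gal2, −0.40 for Hexa, 0.35 for St8sia5, 0.40 for St8sia3 (adjusted p of 0.0646) and 0.57 for Ugcg.

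**Figure D5:**
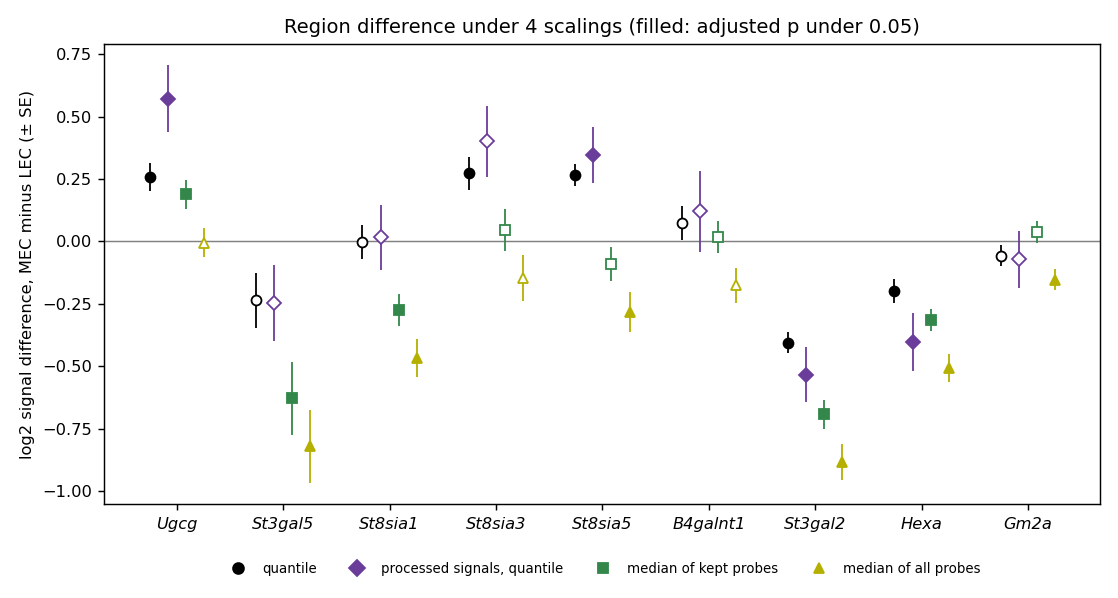
Difference of log2 signal, MEC minus LEC, with limma's standard error, for each gene under 4 ways of scaling the arrays; filled symbols have an adjusted p under 0.05. St3gal2 and Hexa are below 0 under all 4, while St8sia5 and St8sia3 lie above 0 with quantile scaling and St8sia5 falls to −0.28 with the median of all probes.

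Markers of some cell types were called between the regions as well, and the share over all probes was 24.3%. Of the inhibitory neuron markers 6 were kept, 3 called higher and 1 lower in MEC, with a median of 0.17 (−0.02 and 0.17 under the median scalings). The one called lower was Sst, at −0.86. Of the kept markers, 1 of 6 was called for astrocytes and 1 of 9 for microglia and macrophages. For vessels 0 of 3 were called, and 0 of 5 for blood, choroid plexus and meninges. Lists this short do not tell such counts apart from the share over all probes, and a marker not called may still differ. In the last list Dcn stood at −0.92 (SE 0.31, adjusted p of 0.0670 by limma). The summed linear signal of that list ran from 515 to 598 in MEC and from 580 to 930 in LEC. A list of 8 genes stood for excitatory neurons, and 7 were kept. In MEC 5 were called higher and 1 lower, with a median of 0.52 (0.10 and 0.29 under the median scalings). The list is mixed, since Snap25, Syt1, Nefl and Rbfox3, all called higher, are expressed by neurons in general. Of its other kept genes, Neurod6 was higher by 1.16, Nrgn was lower, and Camk2a was not called, at 0.18. These counts therefore do not describe excitatory neurons alone. Of 9 oligodendrocyte markers 7 were kept, 3 called higher and 1 lower in MEC, with a median of 0.26 (−0.04 and 0.15 under the median scalings). The gene called lower was Mbp, which encodes a major myelin protein, at −0.96. The summed linear signal of the oligodendrocyte markers ran from 1180 to 1421 in MEC and from 915 to 1017 in LEC. That of the excitatory markers ran from 4250 to 4944 in MEC and from 4425 to 5317 in LEC. The excitatory sum weighs Nrgn most in LEC, where it was the brightest of these markers in every pair. Nrgn was also the excitatory marker called lower in MEC, at −1.16, so the sum does not follow the median of the list. Slc17a7, a defining transporter of excitatory cortical neurons, had no kept probe, nor did Mog and Olig2 of oligodendrocytes. The part of these cell types in the region differences was not tested.

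Beyond the 9 genes, 26 others of ganglioside synthesis, sialic acid supply and breakdown were on the array, and 13 had a kept probe. None of the 13 was called between mutant and control, and their median ratio over both regions was 0.03, with 8 above 0. Gne, which starts sialic acid synthesis, had a mean ratio of 0.11 (SE 0.075), and the sialyltransferase gene St6galnac5 one of −0.10 (SE 0.06). With replicate 2 turned, Gne gave 0.03 and St6galnac5 0.08.

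Between regions 4 of the 13 were called (3 lower and 1 higher in MEC), a share near the 24.3% of all probes. St6galnac6, another sialyltransferase gene, was lower in MEC by −0.40 (SE 0.08, adjusted p of 0.00815 by limma), with 6.76, 6.61 and 6.68 in MEC and 7.24, 7.07 and 6.96 in LEC. Psap, the precursor of the saposins that help lysosomal enzymes reach their lipids, was lower by −0.31 (SE 0.06, adjusted p of 0.00954), with 6.43, 6.42 and 6.36 against 6.59, 6.77 and 6.78. These differences kept their direction under both median scalings, at −0.74 and −0.55 for St6galnac6 and −0.54 and −0.35 for Psap. Gltp, a glycolipid transfer protein gene, was lower by −0.18 (adjusted p of 0.0337), and at −0.0014 with the median of the kept probes. Nans, the sialic acid synthase gene, was higher by 0.23 (adjusted p of 0.0324), and by 0.09 and 0.28 under the median scalings.

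Of all probes with a gene name, the pattern over the 24 channel readings most like that of St3gal2, the member with the smallest p in both comparisons, belonged to Vat1l (Pearson's r of 0.92), Sfswap (0.89) and Pcdh8 (0.89). These readings share arrays, loess and quantile normalisation and fall into the regions, and the genes differed between regions by −1.65, −0.45 and −1.58.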

How the data were processed

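The deposited scanner files hold raw intensity, mean signals and local backgrounds per dye and spot, and processed intensity that the authors' Agilent Feature Extraction subtracted and dye-normalised, version 9.5.1.1 per the file headers and 8.5.1.1 per the submitters' processing notes. Other deposited columns are flags. The authors' value table holds log2 ratios; each column equals 1 array's processed ratio (r of 0.998 to 0.999 in size over 9166 bright spots, next best 0.657), with medians of −0.4 to 0.4, so it is not centred, and its direction is not stated.

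In R 4.3.3 with limma 3.58.1, raw signals were corrected by normexp (offset 50, which shrinks ratios of dim probes), loess was run within arrays, outlier-flagged spots were left out, and spots and dye-swapped arrays were averaged. Limma fitted the 3 pair means per region; p-values are two-sided. Of 12987 kept probes, 12981 had a value in every pair. Scripts were tested on simulated data. Gene names follow RefSeq GRCm38.p6; 8148 of 41174 probes stayed unnamed. Probe positions are in mm8, as deposited; their exon or UTR was not analysed here. No protein sequences were used. Named are all probes of the 9 genes, the pathway genes that passed or had the 3 largest mean ratios, and the 3 genes most like St3gal2. Some results that these rules would name are not reported here. Members and lists were chosen with earlier results of these data known. Same-numbered MEC and LEC pairs did not deviate together (r of −0.18, −0.0059 and −0.36 for ratios), so no pairing was assumed.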

Additional observations from a re-analysis of the deposited data

How the results depend on the processing

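Across the alternatives, no member ratio was called in any, and the mean ratio over both regions of the member probes changed sign in 28 of 263 values. Over all probes, the random pair block on 12 arrays called 5 probes in MEC, 1 in LEC and 4 over both regions where the pair means called 0, and the fit on MEC pairs alone called 1. Leaving out 1 pair gave 0 to 1 calls in MEC and over both regions, 1 in each without LEC replicate 2, and 0 in LEC and for the difference. For levels, leaving out 1 pair gave 1956 to 2903 calls against 3151, the lowest without MEC replicate 1 and 1999 without LEC replicate 2; median scaling gave 6746 over all probes and 5101 over the kept probes. St8sia5 reversed to −0.28 and −0.090 under these, St8sia3 to −0.15 and Ugcg to −0.0042 under the former; the cause was not tested. St3gal2 was called in all 17 alternatives, Hexa in 12. With the replicate block 2748 probes were called between regions, and no call of the 9 genes' brightest probes was lost (Hexa adjusted p of 0.0494). Files and dyes as labelled gave 4038 level calls. The slide as a block was not run, since each array has its own slide. Signal over background limits the dim probes, mostly in Cy5.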
